A study of Homo sapiens with 11 samples.

Results

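Histone genes were followed across all 11 arrays of Reh cells given a scrambled control, miR-99a, miR-100 or both microRNAs. They were chosen by symbol, current or older: the numbered H1, H2A, H2B, H3 and H4 genes, the H2A.Z, H2AX, H2AJ and macroH2A variants, and H3.3. Of the 19775 genes with a probe set of their own, 57 were histone genes, namely 44 replication-dependent genes, 10 variants and 3 pseudogenes. The replication-dependent genes comprised 6 of the H1, 8 of the H2A, 14 of the H2B, 8 of the H3 and 8 of the H4 family. An antisense RNA beside H1-10 also matched by name and was set aside.

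Reh is an established precursor B-cell leukaemia line with the ETV6-RUNX1 fusion, and every culture profiled stably expressed miR-125b from a viral vector. These cells received precursor oligonucleotides: a scrambled control (2 arrays), miR-99a (3 arrays), miR-100 (3 arrays), or miR-99a with miR-100, here called the combination (3 arrays). Single oligos were given at 66 µM and those of the combination at 33 µM each. Oligos were renewed after 72 h and RNA was taken 48 h later. The labels number the arrays as replicates 1 to 3, with no replicate 3 in control, and do not say that replicates were separate cultures, so p-values measure the spread between these arrays, which may be technical. No group used here lacks miR-125b.

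Replication-dependent histone genes supply the core histones and linker histones that package newly copied DNA. They lie in clusters, are transcribed mainly in S phase, and most of their messages end in a stem-loop instead of a poly(A) tail, which needs its own 3' processing machinery. Most variant histones are encoded by genes with ordinary polyadenylated messages and are made throughout the cell cycle. Variants replace core histones at particular places, such as H2A.Z at promoters and H2AX along the chromosomes, where it is phosphorylated beside DNA breaks. The labelling kit named in the labels primes cDNA from poly(A) tails. Any histone gene, and above all a replication-dependent one, is thus seen mainly through whatever polyadenylated transcript it makes. How this affected the values was not tested.

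The introduced microRNAs are shown because the treatment groups are defined by them, with the seed (bases 2 to 8) in capitals. The labels do not name the arm, and the RefSeq 5p sequences are printed.
hsa-miR-99a-5p: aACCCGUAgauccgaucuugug
hsa-miR-100-5p: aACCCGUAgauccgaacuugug
hsa-miR-125b-5p: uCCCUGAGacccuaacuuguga
The miR-99a and miR-100 sequences share the seed ACCCGUA and have 1 difference, U16A, counted from the 5' end with the miR-99a base first. The seed of miR-125b is CCCUGAG.

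Promoters are shown for 5 histone genes called lower in replicate 3, 3 replication-dependent (an H2B, an H2A and an H4 gene) and 2 variant, as examples of the motifs of each kind. Each is the 250 bases before the gene's start, 5' to 3' on the gene's strand, from RefSeq on GRCh38.p14. Capitals mark 4 motifs sought on both strands: the octamer ATTTGCAT, bound by OCT1 in H2B promoters, CCAAT, the TATA box letters TATAAA, and GGTCCG, the core of an H4 promoter element. TATAAA overlaps its own reverse complement TTTATA where both occur as TTTATAAA. The windows are chr6:27146859-27147108, minus strand, for H2BC12, chr6:27814778-27815027, minus strand, for H2AC14, chr6:27823842-27824091, plus strand, for H4C11, chr11:119095466-119095715, minus strand, for H2AX, and chr4:99950276-99950525, minus strand, for H2AZ1.
H2BC12 promoter: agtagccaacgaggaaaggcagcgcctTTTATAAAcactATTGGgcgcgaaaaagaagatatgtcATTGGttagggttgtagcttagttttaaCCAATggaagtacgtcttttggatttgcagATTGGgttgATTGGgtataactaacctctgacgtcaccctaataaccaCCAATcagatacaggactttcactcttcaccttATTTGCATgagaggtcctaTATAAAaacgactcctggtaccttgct
H2AC14 promoter: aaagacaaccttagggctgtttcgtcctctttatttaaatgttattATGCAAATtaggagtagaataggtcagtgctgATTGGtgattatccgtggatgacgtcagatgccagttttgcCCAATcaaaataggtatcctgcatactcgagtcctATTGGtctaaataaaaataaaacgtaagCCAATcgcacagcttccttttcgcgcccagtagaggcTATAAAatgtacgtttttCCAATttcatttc
H4C11 promoter: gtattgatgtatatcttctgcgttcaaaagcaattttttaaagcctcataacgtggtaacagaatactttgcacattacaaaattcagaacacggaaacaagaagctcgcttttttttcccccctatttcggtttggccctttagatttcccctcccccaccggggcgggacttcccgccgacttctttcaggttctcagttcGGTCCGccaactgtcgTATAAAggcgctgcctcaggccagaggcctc
H2AX promoter: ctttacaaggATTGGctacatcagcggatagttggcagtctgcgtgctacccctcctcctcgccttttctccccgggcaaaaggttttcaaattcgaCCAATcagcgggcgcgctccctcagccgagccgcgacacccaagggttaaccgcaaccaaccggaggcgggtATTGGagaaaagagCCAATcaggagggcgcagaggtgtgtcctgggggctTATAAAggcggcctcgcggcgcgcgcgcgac
H2AZ1 promoter: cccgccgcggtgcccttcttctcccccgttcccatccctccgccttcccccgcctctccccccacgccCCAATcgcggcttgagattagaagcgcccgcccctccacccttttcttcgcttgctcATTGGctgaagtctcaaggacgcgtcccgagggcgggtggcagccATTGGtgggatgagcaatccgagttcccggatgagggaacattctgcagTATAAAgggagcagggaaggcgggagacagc
The H2BC12 and H2AC14 windows are shared by divergent gene pairs: 247 bases separate H2BC12 from H2AC12, and 244 separate H2AC14 from H2BC14. A promoter entry was found for 51 of the 57 genes.

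Motif content followed the histone family. ATTTGCAT was in 10 of 13 H2B and 6 of 8 H2A promoters, in none of the 6 H1, 7 H3 and 7 H4 promoters of the replication-dependent class, and in none of the 10 variant promoters. Over all 27305 promoters of this length 1.66% held it. H2AC14 and H2BC14, a divergent pair with nearly the same window, both held it, so the same octamer can count in both families. GGTCCG was in 6 of 7 H4 promoters, H4C11 among them, against 9.33% of all promoters. CCAAT was in 36 of 41 replication-dependent and 7 of 10 variant promoters (33.0% of all), and TATAAA in 28 of 41 and 3 of 10 (11.1% of all). The H2AX and H2AZ1 promoters thus held the CCAAT and TATA letters seen in most replication-dependent genes, without the octamer. These are matches of letters in a window, not tested sites.

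The deposited values are log2 signals, with array medians of 5.95 to 5.98. B-lineage markers were bright: 8 of the 9 measured lay above the median gene, with a median of 11.25, and the exception was VPREB1 at 5.48. All 6 markers of T and NK cells lay below it. Summed B-lineage log2 signals reached 94.48 to 96.70 on treated arrays of replicates 1 and 2, 94.78 to 95.61 on those of replicate 3, and 94.44 to 95.76 on control arrays. Sums of the T and NK markers were 35.08 to 35.46, 34.76 to 35.08 and 34.89 to 35.41 in the same order, so replicate 3 lay at or below the lowest of the other treated arrays. Of 5 myeloid markers, 2 lay below the median gene, and their sums were 31.11 to 31.63, 31.41 to 31.87 and 31.15 to 31.36. Of 3 erythroid and platelet markers 2 lay below it, as did 4 of 5 of fibroblasts and epithelium, with overlapping sums in both lists. The part of such differences in the histone results was not tested. The arrays numbered replicate 3 stood apart from the other arrays in each treatment, as given below for the histone genes. Treatment comparisons are therefore given with and without them.

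Most replication-dependent genes gave weak signals. Of the 44, 32 lay below the level of the median gene, 6.40, as did 4 of the 10 variants and all 3 pseudogenes. Brightness depends on the probe set as well as on the RNA, so levels of different genes are not ranked, and a gene with a low signal may show a change only in part. A further 28 probe sets matched several histone genes at once and were read separately, since their signal cannot be assigned to 1 gene. A total of 30 coding histone genes, H3-3B among them, had no probe set of their own, and 20 of these were covered only by the shared probe sets.

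The brightest single-gene probe sets were those of variants, which does not rank the RNA levels of the genes. H2AZ1, which encodes a form of H2A.Z, was at 13.60 ± 0.03 in control (SD, n = 2), 13.51 ± 0.15 under miR-99a, 13.56 ± 0.24 under miR-100 and 13.67 ± 0.31 under the combination (SD, n = 3 each). MACROH2A1, encoding the macrodomain-bearing H2A found in silent chromatin, was at 12.55 ± 0.04, 12.52 ± 0.09, 12.49 ± 0.07 and 12.61 ± 0.05 in the same order. These ranges overlapped except that the 3 combination arrays of MACROH2A1 lay just above control, or level with it at 2 decimals (12.58, 12.67 and 12.58 against 12.52 and 12.58).

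Against control, no histone gene passed the threshold in the fit of all 11 arrays without a replicate term. With the replicate number as a block, H3-3A was called with miR-100 and H2AX with the combination, as given in the last section. The counts below are from the fit without the block. In each of the 3 treatments, and in their average, 0 of 57 histone genes were called, as were 0% of all 19775 genes (limma, adjusted p under 0.05). At an unadjusted p under 0.05 the histone genes numbered 0 (miR-99a), 1 (miR-100), 1 (combination) and 1 (average), all of them H3-3A, against 1%, 1.54%, 3.66% and 2.47% of all genes. Treated and control arrays did not overlap for 3, 6 and 9 of the 57 genes with miR-99a, miR-100 and the combination, against 15.4%, 13.4% and 20.5% of all genes. All of these comparisons use the same 2 control arrays.

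Class medians were small and changed sign with the arrays used. Replication-dependent genes had median log2 differences from control of -0.01 (miR-99a), -0.03 (miR-100) and 0.02 (combination). For variants these were -0.02, -0.03 and 0.04, and over all genes -0.01, -0.01 and 0.00. With replicates 1 and 2 only, the replication-dependent medians were 0.02, 0.01 and 0.03, and the variant medians 0.05, 0.05 and 0.10. Leaving out 1 array at a time, the variant medians ran from -0.11 (without miR-99a replicate 2) to 0.05 (without miR-99a replicate 3) for miR-99a, from -0.08 (without control replicate 1) to 0.05 (without miR-100 replicate 3) for miR-100, and from -0.02 (without combination replicate 1) to 0.10 (without combination replicate 3) for the combination. The replication-dependent medians ran from -0.06 to 0.03 over the same refits.

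**Figure D1:**
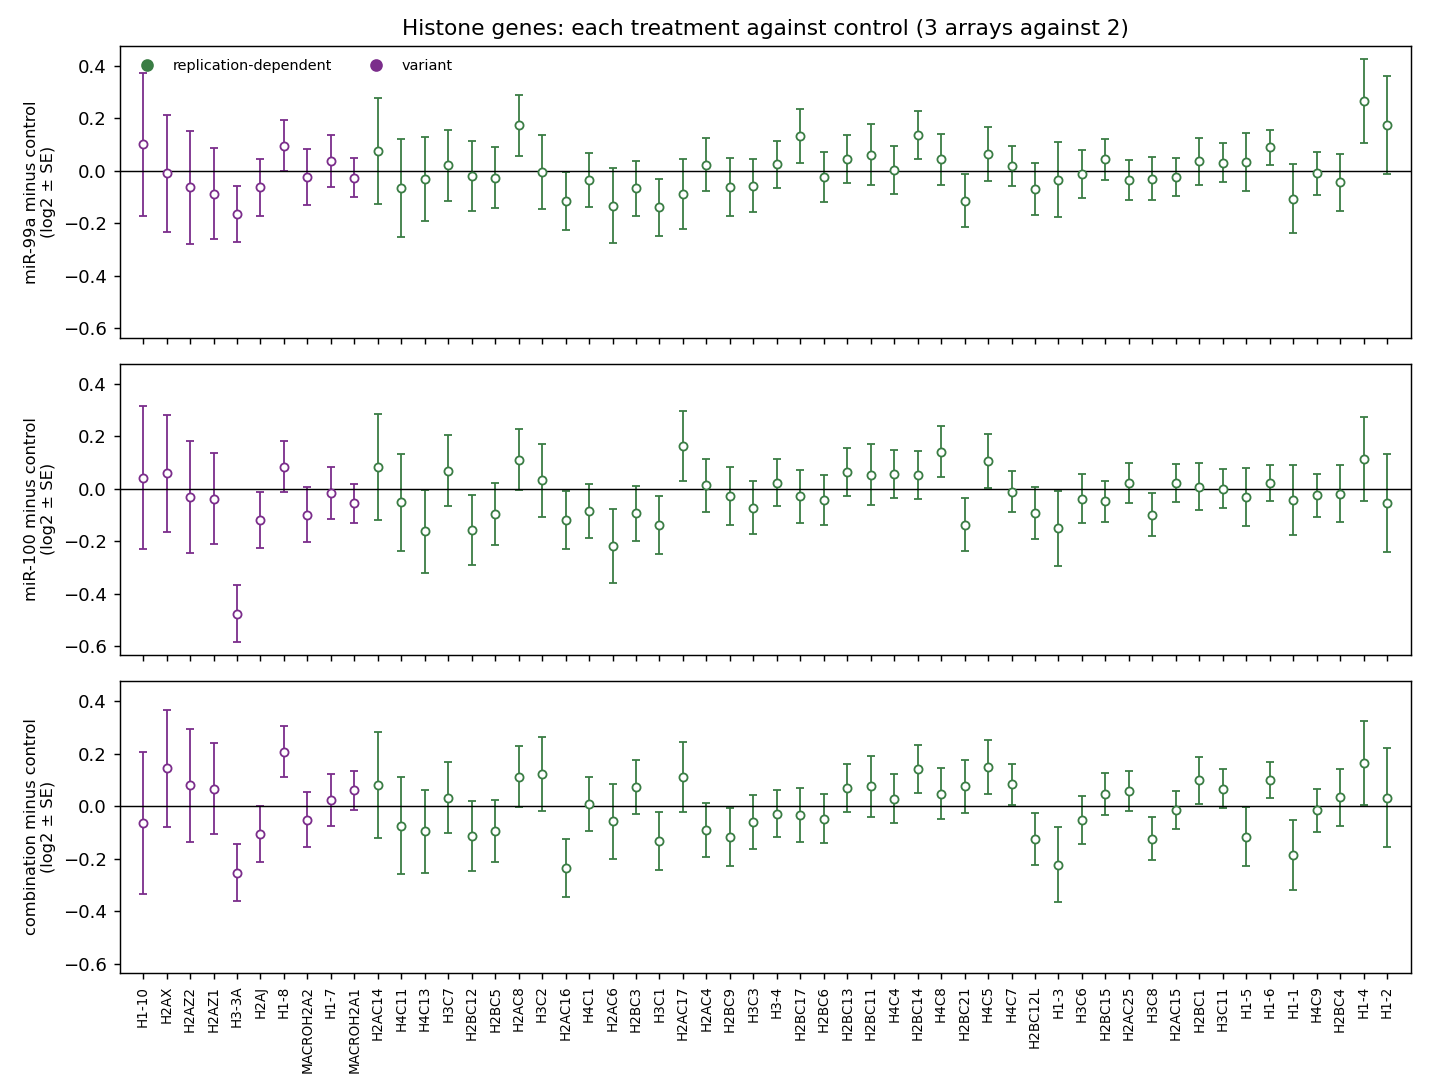
Log2 difference from control (± SE) of the 10 variant and 44 replication-dependent histone genes for miR-99a, miR-100 and the combination, with 3 arrays against 2 in each panel and genes in order of their replicate 3 difference within each class. No gene was called in any panel, and H3-3A with miR-100 lies farthest from zero, at -0.48.

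H3-3A, one of the genes for H3.3, the H3 variant deposited outside replication, had the smallest p of any member with miR-100. It was at 6.34 and 6.38 in control, 6.26, 6.33 and 5.99 with miR-99a, 6.01, 5.81 and 5.83 with miR-100, and 6.17, 6.16 and 5.99 with the combination. Every treated array lay below both control arrays. The log2 differences from control were -0.16, -0.48 and -0.25 (SE 0.11 each), with 95% intervals of -0.40 to 0.07, -0.72 to -0.24 and -0.49 to -0.02, and an adjusted p of 1 each. Between miR-100 and miR-99a it was -0.31 (interval -0.53 to -0.10, unadjusted p 0.00786, adjusted p 1). This probe set is dim. The 8 brighter probe sets shared by H3-3A and H3-3B, at means of 9.18 to 13.74, differed from control by -0.16 to 0.01 with miR-100, and none was called.

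Within the replication-dependent class no member was called. H2AC16, an H2A gene, was at 6.08 and 6.07 in control and at 5.89, 5.90 and 5.72 with the combination. The combination arrays lay lower, by 0.24 on average (SE 0.11, interval -0.48 to 0.01, adjusted p 1). H2BC14, an H2B gene, was at 5.39 and 5.40 in control, 5.68, 5.50 and 5.41 with miR-99a, and 5.58, 5.55 and 5.48 with the combination. Its treated arrays lay above control in both groups, by 0.14 each (SE 0.09, adjusted p 1). H4C8, an H4 gene, was 0.14 above control with miR-100 (SE 0.10, adjusted p 1). Among the linker histone genes, H1-4 differed from control by 0.27 with miR-99a (SE 0.16), and H1-3 by -0.22 with the combination (SE 0.14), both with adjusted p 1.

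Leaving out the replicate 3 arrays changed the histone count in 1 comparison. With replicates 1 and 2 only, again 0 of 57 were called with miR-99a and miR-100 (0% of all genes) and 0 with the mean of treatments (1% of all genes). H2AX was called with the combination, where 1.47% of all genes were called. Its arrays read 11.20 and 11.29 with the combination against 10.86 and 10.97 in control, a log2 difference of 0.33 (SE 0.08, adjusted p 0.0403, limma). Including the replicate 3 array of the combination, at 10.68, the difference was 0.14 (SE 0.22, adjusted p 1). In the other treatments replicates 1 and 2 of H2AX were also above control, by 0.20 each (adjusted p 0.431 and 0.208). Another of the 4 H2AX probe sets, at a mean of 6.38, had a difference of the opposite sign with the combination over all replicates, -0.33 (SE 0.16, adjusted p 1).

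The treatments were not distinguished from each other by histone genes. Between miR-100 and miR-99a, 0 of 57 histone genes were called (0% of all genes), and 1 had an unadjusted p under 0.05 (0.981% of all genes), namely H3-3A. Same-numbered arrays of the treatments varied together, as did replicates 1 and 2 across treatments. With the replicate number as a block, 4 histone genes had an unadjusted p under 0.05, against 1.84% of all genes. These were H3-3A (-0.31, p 9.08e-05), H2AC17 (0.25, p 0.00253), H1-2 (-0.23, p 0.0137) and H2BC17 (-0.16, p 0.0344), and the smallest limma adjusted p among them was 0.486. When the combination was set against both single oligos together, the count was again 0 (0% of all genes), with 1 gene, H2BC21, under an unadjusted 0.05 (2.28% of all genes). H2BC21, an H2B gene, was 0.20 higher with the combination (SE 0.08, interval 0.03 to 0.37, adjusted p 1). With the block there were 2, H2BC21 (p 0.00286, adjusted p 0.501) and H2BC3 (0.15, p 0.0202, adjusted p 0.753), against 5.55% of all genes. Median differences were -0.02 and 0.00 for replication-dependent genes and -0.04 and 0.08 for variants, against -0.01 and 0.00 over all genes. These counts do not show that the oligos act alike, as the intervals of single genes are wide.

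A much larger contrast lay between replicate numbers. Across the 9 treated arrays, with treatment as a covariate, 24 of 57 histone genes differed between replicate 3 (3 arrays) and replicates 1 and 2 (6 arrays), against 29.3% of all genes. Of these, 21 fell in replicate 3, where 12.2% of all genes fell, and 3 rose, where 17.1% of all genes rose. By class, 16 of 44 replication-dependent genes and 5 of 10 variants fell, and 3 and 0 rose. The median log2 difference was -0.13 for replication-dependent genes, -0.18 for variants and 0.00 over all genes. In RNA from a whole culture, fewer cells of a kind (such as cells in S phase) and less of the message per cell cannot be told apart. Control has no replicate 3 array, so the contrast exists only in treated cells. Same-numbered arrays of different treatments varied together (r 0.168 to 0.816 in 9 of 9 pairs), as did replicates 1 and 2 across treatments (r 0.358 to 0.423). The fit takes the arrays as independent, so the p-values of this contrast may be too small. They measure the spread between arrays, not between replicate numbers.

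**Figure D2:**
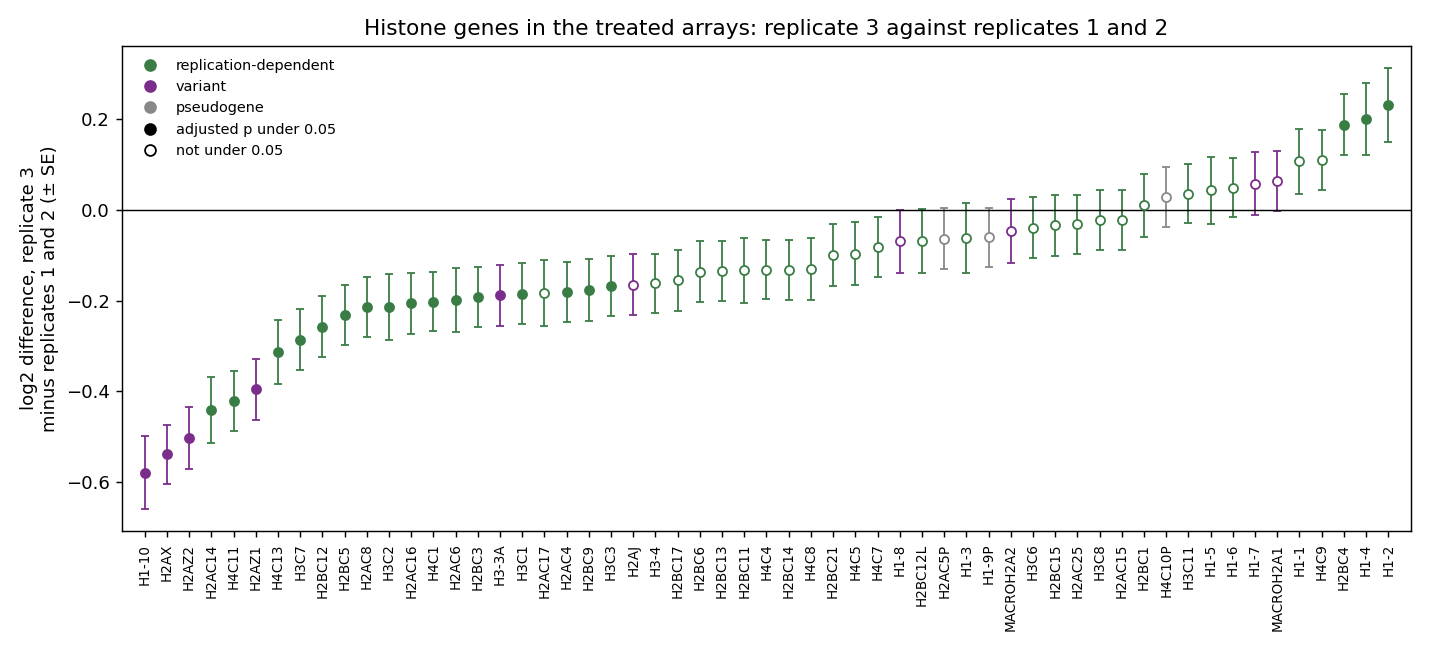
Log2 difference (± SE) of each of the 57 histone genes between replicate 3 (3 arrays) and replicates 1 and 2 (6 arrays) within the treated groups, coloured by class, with filled points for an adjusted p under 0.05. Points run from -0.58 (H1-10) to 0.23 (H1-2), with 21 filled points below zero and 3 above.

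Among the variants, H2AX, H2AZ1, H2AZ2 and H1-10 fell. H2AX ranged from 11.06 to 11.29 with a median of 11.15 over the 6 arrays of replicates 1 and 2, and read 10.49, 10.69 and 10.68 in replicate 3 of miR-99a, miR-100 and the combination. The replicate 3 arrays lay below every other array, the control arrays (10.86 and 10.97) included. The difference was -0.54 (SE 0.07, adjusted p 4.37e-09), or 1.45-fold lower, and the gene was lower in replicate 3 of all 3 treatments. Its dimmer probe sets differed less, by -0.295 (adjusted p 0.00222), -0.17 (adjusted p 0.0496) and -0.006 (adjusted p 0.973, limma). After quantile normalization the difference of the chosen probe set was -0.40 (adjusted p 4.66e-06).

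H1-10, a linker histone made outside S phase, ranged from 9.49 to 10.11 (median 9.78) in replicates 1 and 2 and read 9.17, 9.39 and 9.14 in replicate 3. All 3 arrays of replicate 3 were below the other treated arrays and below control (9.45 and 9.74). Its difference of -0.58 (SE 0.08, adjusted p 7.41e-08) was the largest of the 57.

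H2AZ1 ranged from 13.59 to 13.86 (median 13.69) in replicates 1 and 2 and read 13.34, 13.30 and 13.31 in replicate 3. Again the replicate 3 arrays were the lowest of the 11, control being at 13.58 and 13.62. The difference was -0.40 (SE 0.07, adjusted p 5.08e-06), and a further probe set of the gene gave -0.41. After quantile normalization between arrays it was smaller, -0.19 (adjusted p 0.0078).

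H2AZ2, which encodes the other H2A.Z protein, ranged from 11.61 to 11.88 (median 11.77) and read 11.15, 11.36 and 11.29 in replicate 3, a difference of -0.50 (SE 0.07, adjusted p 4.65e-08). Its probe sets disagreed. The other 3, at means of 9.19 to 11.40, differed by -0.02 to 0.08 and were not called, and with the mean of all 4 the difference was -0.09 (adjusted p 0.372). After quantile normalization it was -0.33 (adjusted p 2.53e-05).

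Calls for the remaining variants depended on the probe set or the scaling, or were not made. MACROH2A1 read 12.60, 12.57 and 12.58 in replicate 3 within the range of replicates 1 and 2 (12.43 to 12.67), a difference of 0.06 (SE 0.07, adjusted p 0.563). It too depended on the probe set: 3 of its other 6 were called higher, by 0.32 to 0.52, and after quantile normalization the chosen probe set was called higher as well (0.27, adjusted p 0.000318). MACROH2A2, its paralog, differed by -0.05 (adjusted p 0.725) and H2AJ, an H2A variant, by -0.16 (adjusted p 0.0606). H2AJ was called lower after quantile normalization (-0.20, adjusted p 0.00439), and a second of its probe sets, also at a mean of 9.38, was called (-0.23, adjusted p 0.0147), whereas its 2 dimmer probe sets differed by 0.01 and 0.00. Differences of the germ-cell linker histones H1-7 and H1-8 were 0.06 and -0.07 (adjusted p 0.642 and 0.554). H3-3A fell by 0.19 (adjusted p 0.028), with overlapping arrays, and it was not called without any 1 of the miR-99a arrays, miR-100 replicate 1 or combination replicate 3 (-0.20 to -0.13, adjusted p 0.0528 to 0.312).

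**Figure D3:**
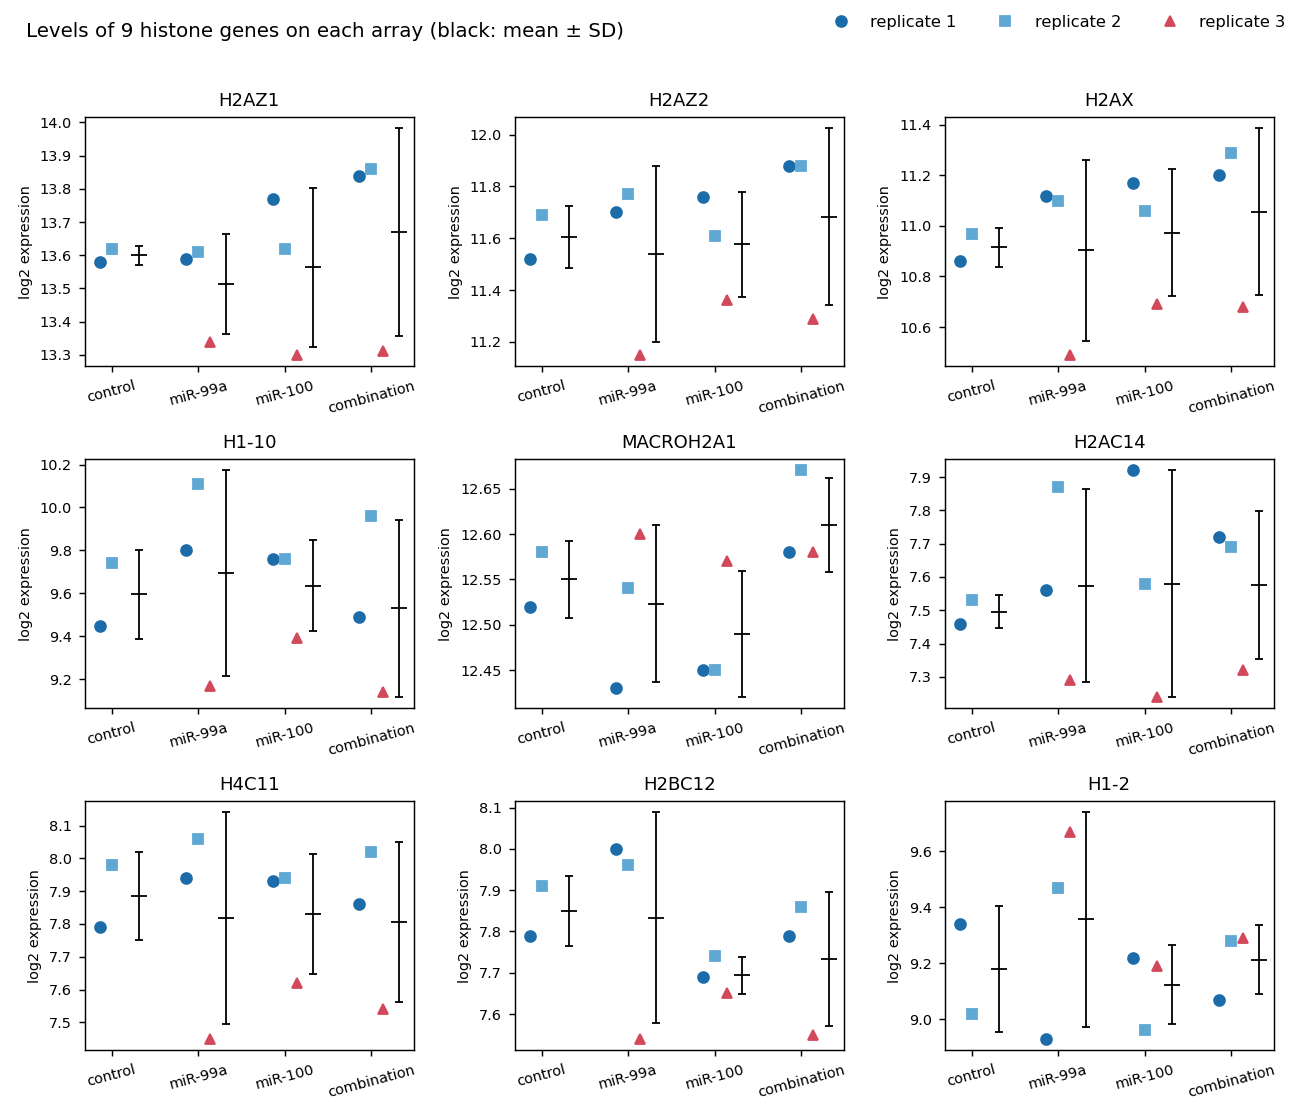
Log2 expression of 9 histone genes on each of the 11 arrays by treatment group, with the replicate number as symbol and colour and the group mean ± SD in black (n = 2 for control, 3 otherwise). For H2AZ1, H2AZ2, H2AX, H1-10, H2AC14, H4C11 and H2BC12 the 3 replicate 3 arrays lie below all other treated arrays; for MACROH2A1 and H1-2 they do not.

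Core histone genes of the replication-dependent class fell in every family, and no H1 gene of that class did. The linker histone made outside S phase, described above, fell but belongs to the variants, which are not counted here. By family, 5 of 8 H2A, 4 of 14 H2B, 4 of 8 H3 and 3 of 8 H4 genes fell, against 0 of 6 H1 genes and 12.2% of all genes. Family medians were -0.19, -0.13, -0.17 and -0.13 for H2A, H2B, H3 and H4, and 0.08 for H1. The difference between families was not tested.

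H2AC14, an H2A gene whose promoter is printed above, ranged from 7.56 to 7.92 (median 7.70) in replicates 1 and 2 and read 7.29, 7.24 and 7.32 in replicate 3. Its replicate 3 arrays lay below all others, control (7.46 and 7.53) included, with a difference of -0.44 (SE 0.07, adjusted p 2.8e-06). H2BC14, its divergent neighbour, differed by -0.13 (SE 0.07, adjusted p 0.145). The probe sets of H2AC14 and H4C11 are of the kind that can bind related sequences, so signal from other H2A and H4 messages cannot be told apart.

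H4C11, an H4 gene, ranged from 7.86 to 8.06 (median 7.94) and read 7.45, 7.62 and 7.54 in replicate 3, a difference of -0.42 (SE 0.07, adjusted p 1.58e-06). The replicate 3 arrays were below all other arrays, the control arrays being at 7.79 and 7.98. H4C13, another H4 gene at a much lower signal (5.63 on average), read 5.60, 5.30 and 5.32 in replicate 3 against 5.59 to 5.88, and fell by 0.31 (adjusted p 0.000366). Here the miR-99a array of replicate 3 overlapped the others.

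H3C7, an H3 gene, read 6.03, 6.19 and 6.06 in replicate 3 against 6.31 to 6.46 in replicates 1 and 2, without overlap, a difference of -0.29 (SE 0.07, adjusted p 0.000589). H2BC12, an H2B gene, read 7.54, 7.65 and 7.55 against a lowest value of 7.69 and a median of 7.83, a difference of -0.26 (SE 0.07, adjusted p 0.00234). Without miR-99a replicate 3 the difference of H2BC12 was -0.17 (adjusted p 0.142). H2BC5 fell by 0.23 (adjusted p 0.0053). A second H2BC5 probe set, at a mean of 6.92 against 6.98, differed by -0.12 and was not called (adjusted p 0.217, limma). Both are of the kind that can bind related sequences. Except for the called genes named so far, the falls of replication-dependent genes were of 0.17 to 0.21.

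In the opposite direction, 3 genes rose. H1-2, a linker histone, read 9.67, 9.19 and 9.29 in replicate 3 against 8.93 to 9.47 (median 9.15) in replicates 1 and 2, a rise of 0.23 (SE 0.08, adjusted p 0.0277). H1-4, another linker histone, rose by 0.20 (SE 0.08, adjusted p 0.0495). It read 6.79, 6.25 and 6.74 in replicate 3, so the miR-100 array was low while the other 2 were high. H2BC4 rose by 0.19 (SE 0.07, adjusted p 0.0269) at a signal near 5.5. H1-2 and H1-4 lost their calls after quantile normalization (adjusted p 0.148 and 0.08), and without miR-99a replicate 3 (0.11 and 0.12, adjusted p 0.518 and 0.48). H1-2 was also not called without miR-99a replicate 1, miR-100 replicate 2 or combination replicate 1, and H1-4 without miR-99a replicate 1 or any 1 of the combination arrays, the smallest difference being 0.08 without combination replicate 3 (adjusted p 0.661). H2BC4 was not called without miR-99a replicate 2 or 3 or miR-100 replicate 2 or 3, with the smallest difference, 0.12, without the last (adjusted p 0.272).

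Signal level itself moved with replicate 3, which bears on the brightest members. Of all genes with a mean of 12 or more, 56.4% were called lower in replicate 3, with a median difference of -0.23. Between 10 and 12 the share was 45.0%, and H2AX, H2AZ1 and H2AZ2 lie in these ranges. After quantile normalization the medians of these ranges were -0.01 and 0.02. Under that scaling 24 histone genes were called lower and 2 higher, and the class medians were -0.12 and -0.18. Of all 19775 genes, 2770 were then called lower and 3440 higher, with a median of 0.01.

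At low signals few genes were called. Among genes with a mean under 6, 1.59% were called lower and 0.86% higher, with a median of -0.01, whereas 7 of the 28 histone genes at that level were called lower and 1 higher, with a median of -0.11. From 6 to 8, 10.9% of all genes were called lower and 19.7% higher, and 10 and 1 of 21 histone genes. From 8 to 10 the shares were 22.0% and 42.4%, with a median of 0.13, and 1 of 4 histone genes was called in each direction. The part of signal level in the histone differences was not tested beyond these values. The 3'-to-5' signal differences of ACTB and GAPDH, a sign of RNA integrity, overlapped between replicate 3 (2.52 to 2.85 and 0.56 to 0.71) and replicates 1 and 2 (2.45 to 3.17 and 0.53 to 0.63).

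Non-overlap gave a similar count. In 14 of 57 histone genes all replicate 3 arrays lay below all 6 arrays of replicates 1 and 2, compared with 11% of all genes. In 2, H2BC4 and H4C9, all lay above, compared with 14.9%. Across the 14 settings tried, H1-10, H2AC14, H2AX, H2AZ1, H2BC5, H3C7, H4C11 and H4C13 were called lower in each one in which they were tested.

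The number of calls rested in part on single arrays. Leaving out each treated array in turn gave 13 to 23 called genes. Without combination replicate 3 there were 13 and without miR-99a replicate 3 there were 14, in both cases with 13 of the 24 among them, and without combination replicate 1 there were 16. The share of all genes called in each refit is not given here, so these counts are no result about histone genes in particular. The difference between replicates did not itself differ detectably between treatments: 0 histone genes and 0 of all genes were called for any pair of treatments (limma interaction, a test added after the data were seen). The smallest adjusted p of a member was 0.429, for H1-4, and 3, 0 and 1 members had an unadjusted p under 0.05 in the 3 pairs.

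Probe sets shared by several histone genes, fitted separately after the data were seen, were called in 1 direction. Of 28, 11 were called lower in replicate 3 and 0 higher, where 22.9% of all 54613 probe sets were called and 8.59% were called lower. The brightest, matching 14 H4 genes at a mean of 14.13, fell by 0.31 (adjusted p 0.00041), and a weaker probe set for the same genes fell by 0.48 (adjusted p 3.44e-07). Of the other 3 probe sets for these H4 genes, 1 fell by 0.19 (adjusted p 0.0357), and the other two differed by -0.08 and 0.08 and were not called. A pair of probe sets for the H2A genes H2AC18 and H2AC19 fell by 0.37 and 0.33 (adjusted p 4.57e-05 and 0.000213), while a dimmer one differed by -0.05 and was not called. The H3.3 probe sets split into 2 kinds. The 4 that also match the pseudogene H3P6 fell by 0.31 to 0.32, whereas the 4 that match H3-3A and H3-3B together with the microRNA gene MIR4738 differed by -0.09 to 0.07 and were not called. The H3P6 probe sets, at means of 13.45 to 13.74, and the brightest H4 probe set lie at high signal. Of all genes with a mean of 12 or more, 56.4% were called lower, with a median of -0.23. Quantile normalization was not applied to the shared probe sets.

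**Figure D4:**
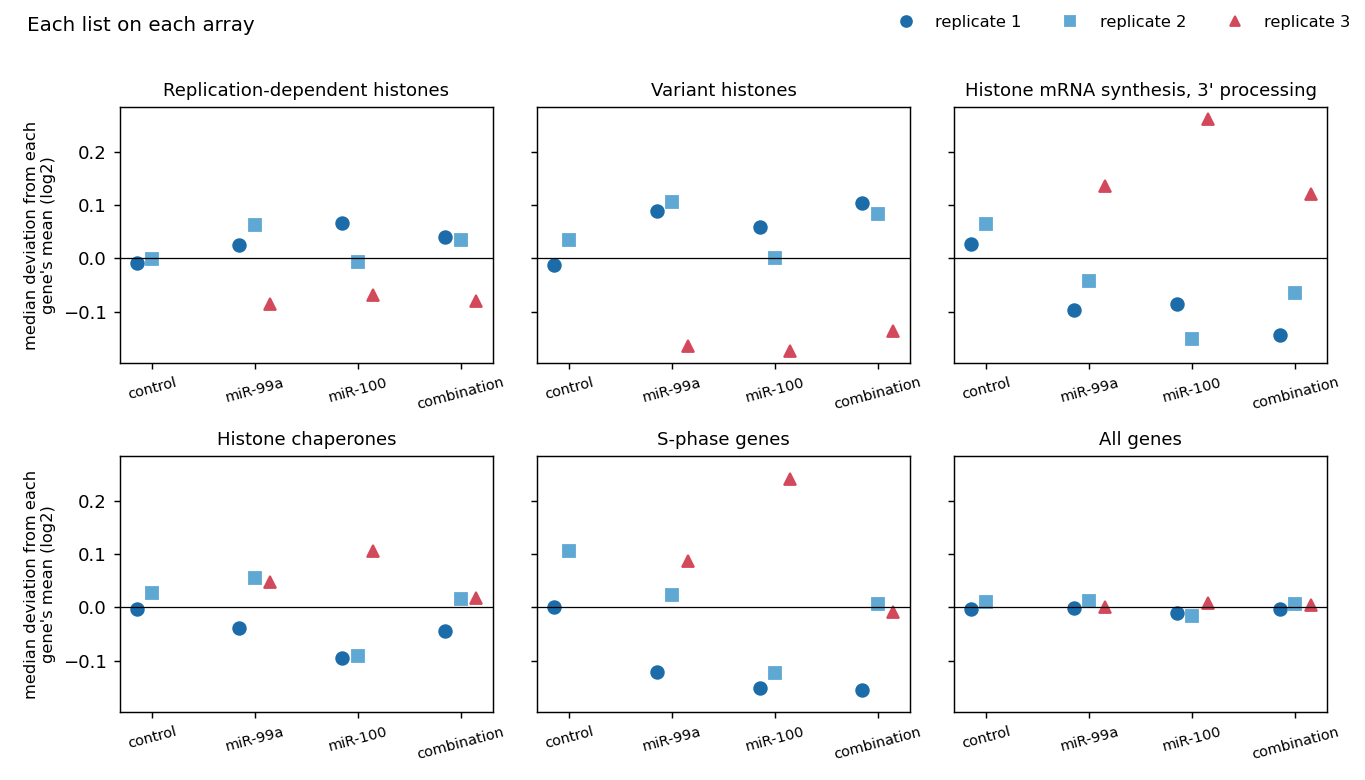
Median, over the genes of a list, of the deviation of each array from that gene's mean over the 11 arrays (log2), for the 2 histone classes, 3 lists of genes that supply or use histones, and all genes, by treatment group and with the replicate number as symbol. The 3 replicate 3 arrays are lowest for both histone classes and highest for the histone message list, while the control arrays lie between -0.01 and 0.11.

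Array by array the same order was seen. The median deviation of replication-dependent genes from their own means was -0.09 to -0.07 on the 3 replicate 3 arrays, -0.01 to 0.07 on the 6 arrays of replicates 1 and 2 and -0.01 to 0.00 in control. For variants it was -0.17 to -0.14, 0.00 to 0.11 and -0.01 to 0.03. Both classes were thus lowest on the replicate 3 arrays, with control between them and the other treated arrays or overlapping the latter.

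Genes that make histone messages moved the other way. This list covers transcription factors of the histone locus body, the stem-loop processing factors and the enzymes that degrade histone messages. Of its 17 measured genes (18 listed), 14 rose in replicate 3, 0 fell and 3 did not pass, with a median of 0.23, where 17.1% of all genes rose and 12.2% fell. By signal level, 7 of its 7 genes from 6 to 8 rose, where 19.7% of all genes did, and 7 of its 9 from 8 to 10, where 42.4% did. CASP8AP2, a component of the histone locus body, was 9.84, 9.88 and 9.46 in replicate 3 against 8.96 to 9.28 in the other treated arrays, a rise of 0.61 (SE 0.07, adjusted p 2.61e-09). Control, at 9.53 and 9.26, overlapped the replicate 3 arrays. NPAT, the cyclin E-CDK2 substrate that activates histone transcription, rose by 0.47 (adjusted p 3.62e-07), and NCBP1, of the cap-binding complex, by 0.47 (adjusted p 1e-07). SLBP, which binds the stem-loop itself, differed by 0.11 (SE 0.07, adjusted p 0.279).

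S-phase genes were called higher more often than lower, unevenly between treatments. Of 26 measured (27 listed), 13 rose and 2 fell, with a median of 0.18, against 17.1% and 12.2% of all genes. From 8 to 10, 5 of 11 rose, close to the 42.4% of all genes there, and from 10 to 12, 8 of 9 rose, where 27.5% of all genes did. The list's median deviation was 0.24 on miR-100 replicate 3 but 0.09 on miR-99a replicate 3, below control replicate 2 (0.11), and -0.01 on combination replicate 3, just below combination replicate 2 (0.01). RRM1, a subunit of ribonucleotide reductase, rose by 0.54 (adjusted p 8.63e-09), CDC45, of the replicative helicase, by 0.52 (adjusted p 7.68e-08), and CDC6, which loads that helicase, by 0.45 (adjusted p 8.07e-07). The 2 that fell were CDK2 (by 0.43, adjusted p 1.92e-06) and CCNE2 (by 0.34, adjusted p 6.71e-05), a kinase and its cyclin, named after their values were seen.

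Histone chaperones were divided. Of 27, 12 rose, 6 fell and 9 did not pass, with a median of 0.10, against 17.1% and 12.2% of all genes. From 8 to 10, 7 of 11 rose and 2 fell, where 42.4% and 22.0% of all genes did. ATRX, which places H3.3 at repeats, rose by 0.54 (adjusted p 2.7e-08), and SSRP1, a subunit of the FACT complex that handles H2A-H2B, by 0.47 (adjusted p 2.19e-06). ASF1B, a chaperone of H3-H4, fell by 0.51 (adjusted p 3.66e-08). The others that fell, named after their values were seen, were ASF1A (by 0.44), HAT1, which acetylates new H4 (by 0.45), ANP32E, which removes H2A.Z (by 0.43), SET (by 0.36) and VPS72, a subunit of the complexes that deposit H2A.Z (by 0.30), each with an adjusted p of 0.000719 or less.

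Against control none of these 3 lists held a called gene under any treatment. Medians with the combination were -0.11 for the histone message list, -0.03 for chaperones and -0.08 for S-phase genes, and the smallest p of each list there belonged to SLBP (-0.19), ASF1A (-0.26) and PRIM1, a primase subunit (-0.32), each with adjusted p 1.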

How the data were processed

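RNA from 11 samples was measured on Affymetrix human whole-genome arrays. The values deposited by the authors were taken as log2, judged by their range. The sources used here do not give how probe sets were summarised and normalized. Those steps can leave differences between arrays at high signal, so quantile normalization was tried. Depth does not apply to arrays, whose number limits the precision.

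Of 54675 probe sets, 62 were array controls. The 41091 listed with 1 gene, 41037 of which matched RefSeq (GRCh38.p14), gave 19775 genes, and the brightest probe set on average stood for each. Older histone symbols were updated through the RefSeq table. Group means over all 11 arrays, or a replicate 3 term with treatment as covariate over the 9 treated arrays, were fitted with limma 3.58.1 in R 4.3.3 (lmFit, eBayes). P-values are 2-sided and Benjamini-Hochberg adjusted over all genes, and genes under 0.05 are called. No filter on dim genes was applied.

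The histone genes and the lists were chosen with earlier results of these data known, so their counts are set against all genes and no list is tested. Named genes were all variants, the 3 brightest of each family, and per comparison the 5 largest called rises and falls of replication-dependent genes, or the 2 smallest p each way where none was called. From each list the 3 largest called, or the smallest p, were named.

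After removing group means, same-numbered arrays of different treatments correlated in 9 of 9 pairs (r 0.168 to 0.816). Of differently numbered pairs of treated arrays, 6 of 18 exceeded 0.1 (r -0.676 to 0.423). These were pairs of replicate 1 with replicate 2, at r 0.358 to 0.423. The check thus shows that replicate 3 stood apart, and cannot decide whether numbers 1 and 2 pair the treatments. Of the control and treated pairs, 3 of 6 exceeded 0.1 (r -0.152 to 0.438). The deviations of the 2 control arrays mirror each other, so this check cannot decide whether the numbers pair control with treated arrays. Alternatives were the replicate block, replicates 1 and 2 only, quantile normalization, genes at or above the median level, the mean of all probe sets, no cross-reacting (_x_at) probe sets and leaving out each array. The fit was tested on simulated data.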

Additional observations from a re-analysis of the deposited data

How the results depend on the processing

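With the replicate block, 1 histone gene was called with miR-100 (H3-3A, -0.41, adjusted p 0.0433, 0.0354% of all genes called) and 1 with the combination (H2AX, 0.32, adjusted p 0.0188, 4.36% of all genes called), where the fit without it called 0. With 2 control arrays, whether the numbers pair control with treated arrays could not be decided. The block called no histone gene between treatments. With replicates 1 and 2 only, 1 was called with the combination. Restricting to genes at or above the median level left 18 histone genes, 13 of them called in replicate 3. Of these calls, 12 were also made in the fit of all genes. The share of all retained genes called is not given here. The restriction moved the replication-dependent median with the combination to -0.084 (12 genes) and the variant median in replicate 3 to -0.45 (6 genes). With the mean of all probe sets that variant median was -0.093. Leaving out 1 array gave 13 to 23 called histone genes in replicate 3, with the share of all genes in those refits not given. The medians were then -0.16 to -0.10 (replication-dependent) and -0.24 to -0.11 (variant). In the treatment comparisons leaving out 1 array gave 0 called histone genes throughout. The causes of these changes were not tested. No called value changed sign, 260 other values of counts and class medians moved less than the set limits, and 57 values of named genes lost and 13 gained a call. Dim probe sets limit what most replication-dependent genes can show, and 2 control arrays limit every comparison with control.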
